A study of Homo sapiens with 6 samples.

Results

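The miR-23, miR-24 and miR-27 clusters are paralogous groups of hairpins on chromosomes 9 and 19, and 10 of their mature miRNAs were followed by name among the 2588 miRNAs listed in the deposited counts. The members were miR-23a, miR-23b, miR-27a and miR-27b, each with its 3p and 5p arm, and miR-24-3p and miR-24-2-5p. Small RNA libraries came from A549 cells, an established human lung adenocarcinoma line, in which METTL1, a methyltransferase that makes 7-methylguanosine (m7G) in RNA, was knocked down by a doxycycline-inducible short hairpin RNA delivered by lentivirus. One group held total RNA (the input, n = 3) and the other held heat-denatured RNA recovered with an anti-m7G antibody (m7G-RIP, n = 3). RNA of both groups was taken on day 5 of treatment with 200 ng/ml doxycycline, so both carried the knockdown. No libraries with normal METTL1 and none with a control antibody were analysed here. The comparison therefore asked which arms and paralogs were recovered in m7G-RIP relative to total RNA. It does not measure an effect of METTL1. Any difference between the groups in library preparation or sequencing cannot be told apart from recovery by the antibody. The culture text of the m7G-RIP samples described the medium of another line, Caco-2, and they were taken as A549 after their titles and cell line labels.

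A miRNA hairpin is cut from its primary transcript by Drosha and then by Dicer into a short duplex. One strand of the duplex is usually kept in Argonaute, where bases 2 to 8 (the seed) pair with target mRNAs, and the opposite strand is mostly degraded. Each cluster is transcribed as a unit and holds a miR-23, a miR-27 and a miR-24 hairpin. These miRNAs are known for roles in angiogenesis, lipid metabolism and immune cells: miR-23a and miR-23b repress glutaminase, miR-27 restrains the making of fat cells, and miR-24 represses cell cycle genes.

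The mature sequences are shown because the results turn on which arm and which paralog a read came from. All were matched by name to RefSeq (GRCh38.p14), and capitals mark the seed. The prefix hsa, for human, is dropped from the names elsewhere.

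hsa-miR-23a-3p: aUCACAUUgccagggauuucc
hsa-miR-23b-3p: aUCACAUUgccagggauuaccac
hsa-miR-23a-5p: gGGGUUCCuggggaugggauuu
hsa-miR-23b-5p: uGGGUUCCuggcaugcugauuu
hsa-miR-27a-3p: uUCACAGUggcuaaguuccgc
hsa-miR-27b-3p: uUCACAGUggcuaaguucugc
hsa-miR-27a-5p: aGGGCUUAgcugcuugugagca
hsa-miR-27b-5p: aGAGCUUAgcugauuggugaac
hsa-miR-24-3p: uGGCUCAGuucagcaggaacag
hsa-miR-24-2-5p: uGCCUACUgagcugaaacacag

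The 3p arms of the paralogs were nearly identical. The first 18 bases of miR-23a-3p and miR-23b-3p were the same. Counted from 1 at the 5′ end, with the a paralog first, they differed by U19A, and miR-23b-3p had 2 further bases. The first 18 bases of miR-27a-3p and miR-27b-3p were also the same, and C19U was the only difference. The 5p arms had diverged more. The miR-23 pair differed at 7 of 22 bases (G1U, G12C, G13A, A14U, U15G, G16C and G17U) and kept the same seed. The miR-27 pair differed at 8 of 22 bases (G3A, C13A, U17G, G18U, A19G, G20A, C21A and A22C), so that G3A lay within the seed. These differences bear on the counts, because a read cut short within the shared first bases of a 3p pair could be assigned to either paralog.

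On chromosome 9 the cluster spanned 881 bases of the plus strand (GRCh38). MIR23B lay at chr9:95085208-95085304 and MIR27B at chr9:95085445-95085541, both within an intron of AOPEP, and MIR24-1 lay at chr9:95086021-95086088 in an exon of an AOPEP transcript. The chromosome 19 cluster spanned 373 bases of the minus strand, within an exon of the long non-coding RNA MIR23AHG. It held MIR23A at chr19:13836587-13836659, MIR27A at chr19:13836440-13836517 and MIR24-2 at chr19:13836287-13836359. A search of the primary chromosomes of GRCh38 found 9 of the 10 mature sequences at 1 place each. The sequence of miR-24-3p occurred at 2 places, chr9:95086064-95086085 in MIR24-1 and chr19:13836289-13836310 in MIR24-2, so its counts cannot be split between the clusters.

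The total RNA libraries held 9155690 to 10753443 counts and the m7G-RIP libraries 2649238 to 3106556. Within each group the libraries varied beyond counting error (chi-square of 26.0 to 141 per degree of freedom for a pair of replicates). The labels do not say that replicates were separate cultures, so p-values measure only the spread between these libraries, which may be technical. The 620 miRNAs that passed a filter on low counts were tested, and they included all 10 members. Levels are CPM, counts per TMM-scaled library size on a scale common to all libraries. The amount of RNA recovered by the antibody was not known, and every ratio is therefore relative to other miRNAs of the same library. In the study's protocol the input is set aside from RNA that was already decapped and denatured, and it is cleaned up in the same way as the immunoprecipitated RNA. The labels of the total RNA libraries mention neither step, so it is not stated whether they were made from such an aliquot.

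Between m7G-RIP and total RNA, the 3p arms fell and the 5p arms of miR-23a and miR-23b rose. At an adjusted p under 0.05 in edgeR's quasi-likelihood test, 2 of the 10 members were enriched, where 23.5% of all 620 miRNAs tested were enriched. A further 7 members were depleted, where 29.2% of all tested were depleted, and 1 member did not pass the test. All m7G-RIP values exceeded all total RNA values for 2 members, where this held for 29.5% of all tested, and fell short of all of them for 7 members, where that held for 36.5%. The median log2 ratio of the members was -0.94, against -0.07 over all 620. By arm, all 5 of the 3p members were depleted, with a median log2 ratio of -1.53, while of all 252 tested 3p miRNAs 81 were depleted and the median was -0.45. Of the 5 members from 5p arms, 2 were enriched, 2 were depleted and 1 did not pass, with a median of 0.09. Among all 237 tested 5p miRNAs, 62 were enriched and 77 were depleted, and the median was -0.13.

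**Figure D1:**
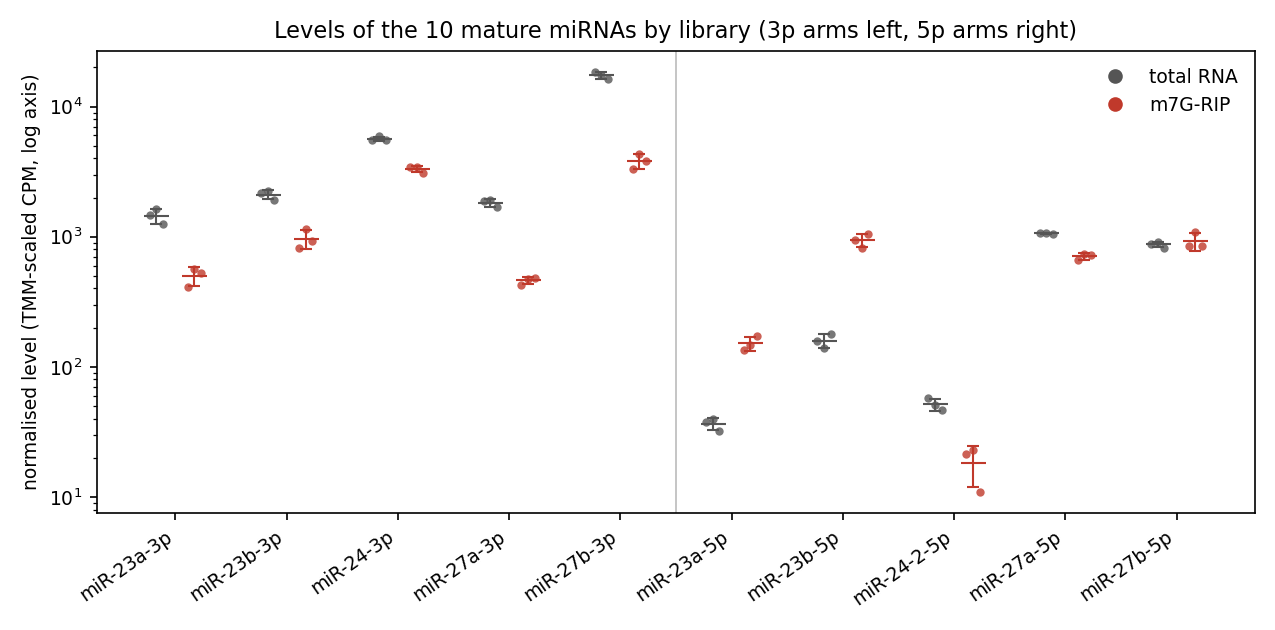
Level of each member (TMM-scaled CPM, log axis) in total RNA and m7G-RIP; each point is 1 library and the bars give the mean and SD of 3 libraries. The 5p arms of miR-23a and miR-23b lie higher in m7G-RIP, miR-27b-5p overlaps between the groups, and the other 7 members lie lower in m7G-RIP.

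The members enriched in m7G-RIP were the passenger-like arms of the miR-23 hairpins, which were the less abundant arms in total RNA. miR-23b-5p was at 159, 140 and 179 CPM in total RNA and at 951, 822 and 1047 CPM in m7G-RIP, so that the groups were well apart and did not overlap. The mean rose from 159 ± 19.1 CPM to 940.1 ± 113 CPM (SD, n = 3) with a log2 ratio of 2.56 ± 0.15 (SE) or 5.90-fold (adjusted p 1.51e-06 in edgeR). Its log2 ratio ranked 42nd from the highest of the 620. miR-23a-5p, with the same seed, was a low-count member, at 37.8, 39.7 and 32.1 CPM in total RNA and 135, 148 and 172 CPM in m7G-RIP. Its mean rose from 36.5 ± 3.97 CPM to 152 ± 18.8 CPM (SD, n = 3) with a log2 ratio of 2.05 ± 0.20 (SE) or 4.15-fold (adjusted p 2.31e-05 in edgeR), the 74th highest.

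The 3p arms of both miR-23 hairpins went the other way. miR-23a-3p was at 1456, 1641 and 1241 CPM in total RNA and at 408, 564 and 526 CPM in m7G-RIP. The groups did not overlap, and the mean fell from 1446 ± 200 CPM to 499 ± 81.6 CPM (SD, n = 3) with a log2 ratio of -1.53 ± 0.16 (SE, adjusted p 4.5e-05 in edgeR). miR-23b-3p was at 2161, 2230 and 1920 CPM in total RNA and at 825, 1150 and 920 CPM in m7G-RIP. It too was lower in every m7G-RIP library, with means of 2104 ± 163 and 965 ± 167 CPM (SD, n = 3) and a log2 ratio of -1.12 ± 0.14 (SE, adjusted p 0.000163 in edgeR).

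miR-27b-3p was the most abundant member in every total RNA library and by its mean in m7G-RIP, where miR-24-3p was higher in replicate 1, and it had the lowest log2 ratio of the 10. It was at 18477, 17493 and 16318 CPM in total RNA and at 3342, 4346 and 3840.1 CPM in m7G-RIP. The mean fell from 17429.6 ± 1081 CPM to 3843 ± 502 CPM (SD, n = 3) with a log2 ratio of -2.18 ± 0.12 (SE) or 4.54-fold lower (adjusted p 1.25e-06 in edgeR). It ranked 11th by level in total RNA and 24th in m7G-RIP. Its paralog miR-27a-3p, with the same seed, was at 1884, 1920 and 1687 CPM in total RNA and at 425, 476 and 484 CPM in m7G-RIP. All 3 m7G-RIP libraries were again below all 3 of total RNA, and the log2 ratio was -1.99 ± 0.12 (SE, adjusted p 1.31e-06 in edgeR).

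Of the 5p arms of the miR-27 hairpins, one fell mildly and no change was detected in the other. miR-27a-5p was at 1069.99, 1059.5 and 1055 CPM in total RNA, the smallest spread of any member relative to its mean, and at 658, 742 and 724 CPM in m7G-RIP. Its log2 ratio of -0.58 ± 0.11 (SE) passed the test (adjusted p 0.00147 in edgeR). miR-27b-5p was at 886, 903 and 824 CPM in total RNA and at 842, 1092 and 845 CPM in m7G-RIP. These groups overlapped, and the log2 ratio of 0.09 ± 0.13 (SE) did not pass (adjusted p 0.595 in edgeR).

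miR-24-3p, the arm encoded by both clusters, was at 5489, 5889 and 5496 CPM in total RNA and at 3412, 3442 and 3099 CPM in m7G-RIP. The groups did not overlap, and the log2 ratio was -0.76 ± 0.10 (SE, adjusted p 0.000156 in edgeR), the mildest decrease among the 3p members. miR-24-2-5p, the passenger-like arm of the chromosome 19 hairpin, was at 57.2, 50.9 and 46.5 CPM in total RNA and at 21.2, 22.9 and 10.97 CPM in m7G-RIP. Unlike the miR-23 5p arms it fell, with a log2 ratio of -1.49 ± 0.32 (SE, adjusted p 0.00411 in edgeR), and its m7G-RIP values rested on 72, 73 and 41 counts.

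Scaling mattered for the members nearest to 0. With library size alone in place of TMM, the median of all tested log2 ratios moved up by 0.55. The log2 ratio was then -0.21 for miR-24-3p (adjusted p 0.0904 in edgeR) and -0.03 for miR-27a-5p (adjusted p 0.784 in edgeR), so both calls were lost. miR-27b-5p became enriched, at 0.64 (adjusted p 0.00128 in edgeR), and the members then comprised 3 enriched and 5 depleted. The other 7 members kept their direction and call.

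The order of the members differed between the groups. In total RNA, mean levels ran from miR-27b-3p through miR-24-3p, miR-23b-3p, miR-27a-3p, miR-23a-3p, miR-27a-5p, miR-27b-5p, miR-23b-5p and miR-24-2-5p to miR-23a-5p, with all of the miR-23 and miR-27 3p arms above all 5p arms. Among neighbours in this order only miR-23b-3p and miR-27a-3p overlapped between libraries. In m7G-RIP, miR-27b-3p overlapped with miR-24-3p at the top. Next came miR-23b-3p, miR-23b-5p and miR-27b-5p, at 965 ± 167, 940.1 ± 113 and 926 ± 144 CPM (SD, n = 3), which overlapped with each other. miR-27a-5p followed at 708 ± 44.5 CPM, above the overlapping miR-23a-3p and miR-27a-3p. All mature sequences are 21 to 23 bases long, so length differs little between them, but the order is one of reads counted and not of molecules.

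Taken as part of the whole library, the 10 members made up 2.52% ± 0.116 of all counts in total RNA and 1.43% ± 0.0398 in m7G-RIP (SD, n = 3). The share was lower in 3 of 3 m7G-RIP libraries than in any total RNA library (exact two-sided permutation p = 0.1, the smallest that 3 against 3 libraries can give). The size of the difference depended on the denominator: it was -1.09 percentage points of all counts, -3.31 points without miR-21-5p and -6.28 points without the 10 most abundant other miRNAs. A smaller denominator raises the shares of both groups, so these differences in points cannot be compared as sizes of effect. The 5 members from 3p arms went from 2.35% ± 0.114 to 1.10% ± 0.0454, and miR-27b-3p by itself from 1.44% ± 0.0836 to 0.464% ± 0.0364 (SD, n = 3). Summed, the 5 members from 5p arms went in the opposite direction, from 0.180% ± 0.00234 to 0.332% ± 0.00565 (SD, n = 3). These shares are of raw counts without TMM scaling. With TMM scaling 2 of these 5 members were enriched, 2 were depleted and 1 did not pass. Within the counts of the members, the 5p arms were 7.13% ± 0.250 in total RNA and 23.2% ± 1.02 in m7G-RIP (SD, n = 3), without overlap (exact two-sided permutation p = 0.1).

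The arms of a hairpin were then compared within each library, a ratio that does not depend on scaling between libraries. The log2 ratio of 5p to 3p counts was tested with limma over all 167 hairpins with enough counts in both arms. The ratio was higher in m7G-RIP at an adjusted p under 0.05 for 4 of the 5 member hairpins, where 21.6% of all 167 hairpins were called in that direction. The remaining hairpin, miR-24-2, had a negative difference that did not pass, where 17.4% of all were called lower. The miR-23 hairpins had the largest arm differences of the 5.

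**Figure D2:**
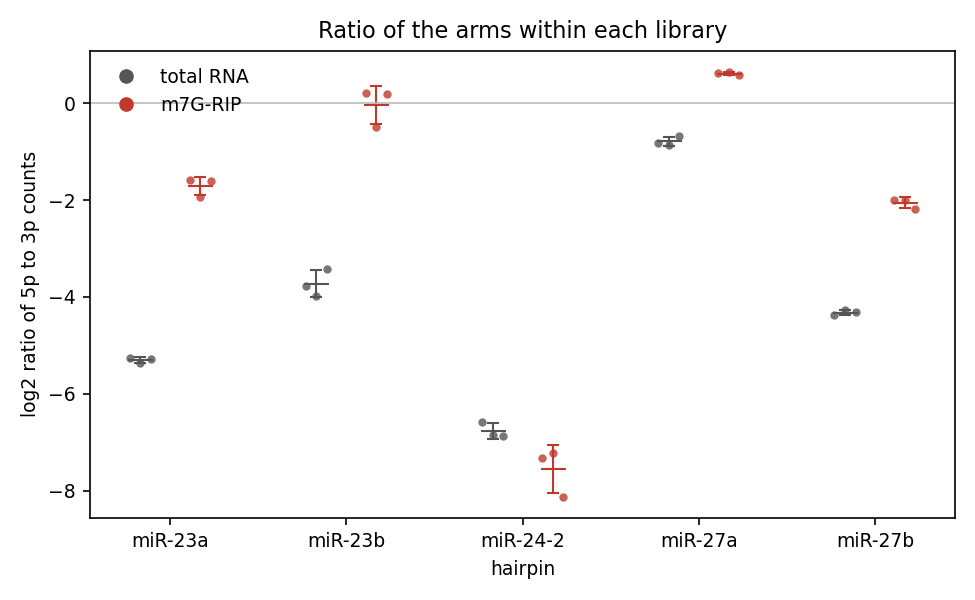
Log2 ratio of 5p to 3p counts within each library for the 5 member hairpins; points are libraries and bars give the mean and SD of 3 libraries. m7G-RIP lies above total RNA for miR-23a, miR-23b, miR-27a and miR-27b, and below it for miR-24-2, and the line at 0 marks equal counts of both arms.

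For miR-23b, the log2 ratio of 5p to 3p counts was -3.76, -3.99 and -3.43 in total RNA and 0.21, -0.48 and 0.19 in m7G-RIP. The 5p arm therefore went from a small minority to more counts than the 3p arm in m7G-RIP replicates 1 and 3, where 3230 and 3913 counts of miR-23b-5p stood against 2802 and 3436 of miR-23b-3p. As a share of both arms, miR-23b-5p was 7.09% ± 1.31 in total RNA and 49.5% ± 6.77 in m7G-RIP (SD, n = 3). The difference in log2 ratio was 3.70 ± 0.31 (SE, 95% interval 2.91 to 4.48, limma adjusted p 0.000946), or 13.0-fold. It ranked 12th of the 167 hairpins, counted from the largest shift toward the 5p arm.

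miR-23a shifted by a like amount from a lower start. Its log2 ratio of 5p to 3p counts was -5.26, -5.37 and -5.27 in total RNA and -1.59, -1.93 and -1.61 in m7G-RIP. The 5p share of the hairpin went from 2.47% ± 0.0944 to 23.4% ± 2.32 (SD, n = 3), and the 3p arm stayed the more abundant one in each library. The difference in log2 ratio was 3.59 ± 0.21 (SE, 95% interval 3.05 to 4.13, limma adjusted p 0.000521), or 12.04-fold, and ranked 16th of 167.

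The miR-27 hairpins shifted less. For miR-27b the log2 ratio of 5p to 3p counts was -4.38, -4.28 and -4.31 in total RNA and -1.99, -1.99 and -2.18 in m7G-RIP, and the 5p share went from 4.77% ± 0.1704 to 19.4% ± 1.19 (SD, n = 3). The difference was 2.27 ± 0.20 (SE, 95% interval 1.77 to 2.76, limma adjusted p 0.000967), or 4.81-fold. With TMM scaling the shift in this hairpin came with a fall of the 3p arm, since miR-27b-5p itself did not pass the test. With library size alone, miR-27b-3p still fell (log2 ratio -1.63) and miR-27b-5p rose (0.64), so the part of each arm depended on scaling. miR-27a was the member hairpin with the most balanced arms, with log2 ratios of -0.82, -0.86 and -0.68 in total RNA and 0.63, 0.64 and 0.58 in m7G-RIP. Its 5p share went from 36.8% ± 1.53 to 60.5% ± 0.537 (SD, n = 3), so that the more abundant arm was 3p in every total RNA library and 5p in every m7G-RIP library. The difference was 1.40 ± 0.19 (SE, 95% interval 0.91 to 1.89, limma adjusted p 0.00431), or 2.64-fold.

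The miR-24-2 hairpin did not follow the others. The log2 ratio of miR-24-2-5p to miR-24-3p was -6.58, -6.85 and -6.88 in total RNA and -7.32, -7.22 and -8.12 in m7G-RIP. The groups did not overlap, but the difference of -0.78 ± 0.32 (SE, 95% interval -1.60 to 0.04) did not pass (limma adjusted p = 0.107). The sequence of miR-24-3p is encoded in both clusters, so this ratio cannot be read as that of the chromosome 19 hairpin alone. For each of the 5 hairpins the exact two-sided permutation p was 0.1, the smallest possible.

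The paralogs were compared as counts of the b form per count of the a form in each library. Of 43 pairs of miRNAs named a and b that were tested with limma, 37.2% differed between m7G-RIP and total RNA in either direction, and 2 of the 4 member pairs did. Both were shifts toward the chromosome 9 paralog (b), a direction called for 25.6% of the 43 pairs.

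**Figure D3:**
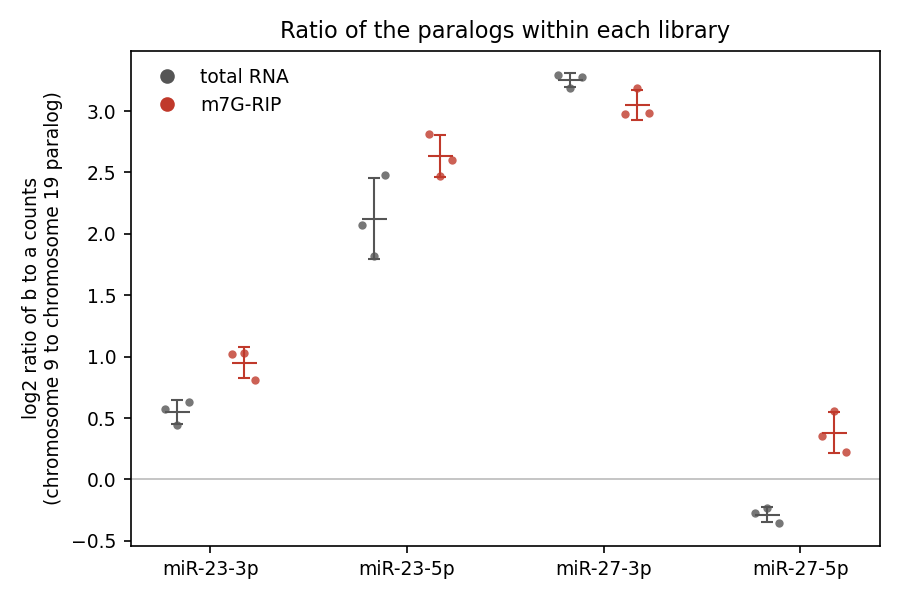
Log2 ratio of counts of the b paralog (chromosome 9) to counts of the a paralog (chromosome 19) in each library. Points are libraries and bars give the mean and SD of the log2 ratios of 3 libraries. The miR-27 5p pair is negative in total RNA and positive in m7G-RIP, and the miR-23 5p and miR-27 3p pairs overlap between the groups.

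The miR-27 5p pair changed order. There were 0.828, 0.853 and 0.781 counts of miR-27b-5p per count of miR-27a-5p in total RNA, and 1.28, 1.47 and 1.17 in m7G-RIP. The a form was therefore the more abundant in every total RNA library and the b form in every m7G-RIP library. The log2 difference was 0.66 ± 0.11 (SE, 95% interval 0.38 to 0.95), with a limma adjusted p of 0.00852 and p = 0.1 in an exact two-sided permutation. The forms of this pair differ at 8 of 22 bases, among them G3A in the seed. A link between these differences and the shift was not tested.

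The miR-23 3p pair, which differs by 1 base and the length of its end, shifted less. There were 1.48, 1.36 and 1.55 counts of miR-23b-3p per count of miR-23a-3p in total RNA and 2.02, 2.04 and 1.75 in m7G-RIP, without overlap. The log2 difference was 0.40 ± 0.10 (SE, 95% interval 0.15 to 0.66), with a limma adjusted p of 0.0307 and p = 0.1 in an exact two-sided permutation. The call was lost when any 1 library other than m7G-RIP replicate 3 was left out, with limma adjusted p from 0.0591 to 0.102 and log2 differences of 0.35 to 0.44.

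The other pairs did not pass. For the miR-23 5p pair, 4.44 ± 1.03 counts of miR-23b-5p per count of miR-23a-5p in total RNA stood against 6.23 ± 0.750 in m7G-RIP (SD, n = 3), with overlapping groups and a log2 difference of 0.51 (95% interval -0.03 to 1.04, limma adjusted p 0.120, exact permutation p 0.2). Without total RNA replicate 3 the difference was 0.68 and passed (limma adjusted p = 0.0482). For the miR-27 3p pair the ratio was 9.53 ± 0.370 in total RNA and 8.31 ± 0.711 in m7G-RIP (SD, n = 3), a log2 difference of -0.20 (95% interval -0.43 to 0.02, limma adjusted p 0.136, exact permutation p 0.2). Without m7G-RIP replicate 2 it was -0.27 and passed (limma adjusted p = 0.0443). Over all 4 pairs the log2 shifts between paralogs thus ran from -0.20 to 0.66. Over all 5 hairpins those between arms ran from -0.78 to 3.70, and the difference between these kinds of shift was not tested.

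The G content of the mature sequences was compared with the log2 ratios, since m7G is carried on G. miR-23a-5p had 50.0% G, with 11 G in 3 runs and a longest run of 4, and was 1 of the 2 enriched members. The runs are shown in capitals here: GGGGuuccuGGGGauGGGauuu. miR-23b-5p, the member with the highest log2 ratio, had 31.8% G, the same as miR-24-3p, which was depleted, and miR-27b-5p, which did not pass. Its runs were shorter: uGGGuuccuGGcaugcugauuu. G content was 36.4% in miR-27a-5p, 23.8% in both miR-27 3p arms, 22.7% in miR-24-2-5p, 19.05% in miR-23a-3p and 17.4% in miR-23b-3p. The depleted members thus covered G contents up to 36.4%, above that of miR-23b-5p. The calls of miR-27a-5p and miR-24-3p were lost with library size alone, however. The other depleted members had at most 23.8% G, below miR-23b-5p.

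Over the 10 members, Pearson's r between G content and log2 ratio was 0.72 and Spearman's rho 0.68. Over the 557 tested miRNAs that had a mature sequence (89.8% of 620), r was 0.41 and rho 0.44. These are correlations across miRNAs of the same 6 libraries, which are not independent replicates, and the members share sequence with each other as paralogs and as the opposed strands of a duplex. C content went with the log2 ratio in the opposite direction among the members (r = -0.76), with r = -0.09 over the 557. G content of the whole hairpin had an r of -0.21 over the members and 0.28 over 497 tested miRNAs. Both arms of each miR-23 and miR-27 hairpin have the same value of that measure. Base composition, length and cluster of origin were not separated by this comparison.

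**Figure D4:**
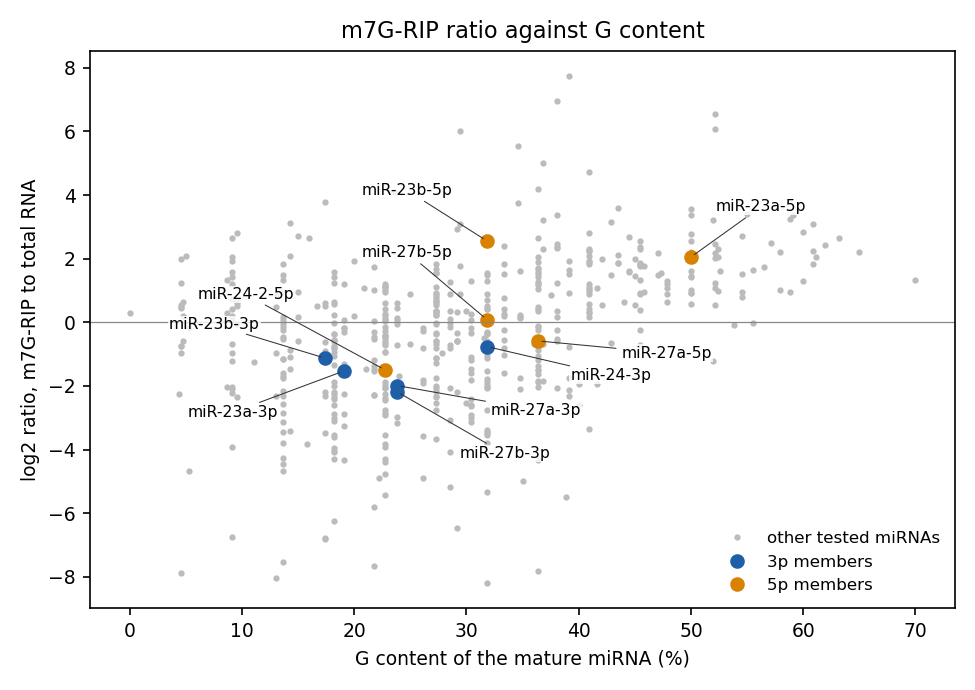
Log2 ratio of m7G-RIP to total RNA against the G content of the mature miRNA (%); grey points are other tested miRNAs and coloured points the 10 members by arm. miR-23a-5p, at 50.0% G, and miR-23b-5p, at 31.8% G, are the members well above 0.

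Within hairpins, the log2 ratio was higher for the more G-rich arm in 5 of 5 member hairpins. The same held for 91 of the 136 other hairpins with unequal G content (66.9%). G content of the 5p arm minus that of the 3p arm was 31.0 percentage points in miR-23a, 14.4 in miR-23b, 12.6 in miR-27a, 8.01 in miR-27b and -9.09 in miR-24-2. The only hairpin whose 3p arm had more G, miR-24-2, was also the one whose difference in log2 ratio was negative. That difference did not pass (limma adjusted p = 0.107), and its 3p arm is encoded in both clusters. The miR-23 and miR-27 hairpins are paralogs of each other in pairs, so the 5 hairpins are not independent. The sizes did not follow the same order, since miR-23b had a larger arm difference than miR-23a, and miR-27b a larger one than miR-27a.

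Relatives of these loci and seeds were read from a list of 5. miR-24-1-5p, the 5p arm of the chromosome 9 miR-24 hairpin, had 0 counts in all 6 libraries, which allows up to 0.394 CPM in a total RNA library and up to 0.942 CPM in an m7G-RIP library (3 counts each). miR-3074-5p, from a hairpin annotated on the opposite strand of MIR24-1, also had 0 counts in all 6. Its mature sequence overlaps the chromosome 9 copy of miR-24-3p by 20 bases, and miR-3074-3p overlaps miR-24-1-5p by 19 bases. miR-3074-3p had 580, 502 and 520 counts in total RNA and 204, 315 and 307 in m7G-RIP. The libraries were stranded, but the strand setting of the counting is not stated, so reads of miR-24-1-5p and miR-3074-3p cannot be told apart, and the absence of counts for miR-24-1-5p is not a measure of that arm. In CPM miR-3074-3p was at 64.5 ± 4.43 and 80.4 ± 19.5 (SD, n = 3), with overlapping groups and a log2 ratio of 0.32 (adjusted p 0.271 in edgeR). miR-23c, which shares the seed of the miR-23 3p arms, had 3, 5 and 1 counts in total RNA and none in m7G-RIP and was not tested. miR-128-3p, a brain-enriched miRNA whose seed region resembles that of miR-27, was at 5353 ± 644 CPM in total RNA and at 5683 ± 813 CPM in m7G-RIP (SD, n = 3), with a log2 ratio of 0.09 that did not pass (adjusted p 0.611 in edgeR).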

How the data were processed

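Raw read counts for each mature miRNA, as deposited by the authors, were used for 3 total RNA and 3 m7G-RIP libraries. Per their methods, adaptors were removed with Trimmomatic, reads of stranded libraries were aligned to GRCh38 end to end with STAR, keeping up to 10 equally good alignments per read and allowing 1 mismatch (the submitters' processing notes list Bowtie2 instead), and featureCounts summarised them on miRBase 22 mature miRNAs. Tool versions and the featureCounts options for strand, for reads with several alignments and for overlapping features are not given in the sources used here, which bears on miR-24-3p and on the 3p paralogs. Groups were taken from sample titles.

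The count test was that of edgeR 4.0.16 under R 4.3.3 (filterByExpr, TMM scaling, robust quasi-likelihood F test, no replicate block), with Benjamini-Hochberg adjustment over 620 miRNAs and a threshold of 0.05. Ratios of arms (167 hairpins) and of paralogs (43 pairs) per library, with a pseudocount of 0.5 and a mean of at least 10 counts in each partner, were tested with robust limma 3.58.1. Shares were tested by exact permutation. Reads carried no molecular identifiers, so a limit derived from counts covers counting error alone. Depth was lower in m7G-RIP, which limits miR-24-2-5p most.

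Named miRNAs were the 10 members, a list of 5 relatives, and the 3 miRNAs nearest in pattern to miR-23b-5p and to miR-27b-3p. Members and lists were chosen with earlier results of these data known. Mature sequences and hairpin positions came from RefSeq (GRCh38.p14), and the genes and exons that overlap the hairpins from GENCODE 44. The code was tested on simulated counts. Alternatives covered scaling, filters, tools (DESeq2 1.42.0, the edgeR likelihood ratio test, limma-voom), a 2-fold requirement, pseudocounts, leaving out each library, and a block for the replicate number.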

Additional observations from a re-analysis of the deposited data

How the results depend on the processing

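Over all alternatives to the edgeR fit, 2 to 3 members were enriched and 5 to 7 depleted, and 4 hairpins differed between arms in all 10 alternatives. The log2 ratio of miR-27b-5p, near 0, turned negative without the filter on low counts (-0.19), where the median of all tested miRNAs moved by -0.72. It ranged from -0.21 to 0.083 when 1 library was left out, which also changed the miRNAs tested. Without m7G-RIP replicates 1, 2 and 3 it was -0.06, -0.21 and -0.07, and the median of all tested moved by -0.17, -0.26 and -0.33. Without total RNA replicate 3 it was -0.03, and the median moved the other way, by 0.24. Of the paralog pairs, 1 to 2 differed when 1 library was left out, and 1 with the replicate block, under which the miR-23 3p pair had a limma adjusted p of 0.149. The correlations of same-numbered deviations from the group means were -0.04, -0.10 and 0.06 over 620 miRNAs. Such values cannot decide whether same-numbered libraries came from the same RNA, because noise of each library could hide a pairing. The block changed no other call. With G content of the hairpin, r over the members was -0.21 instead of 0.72. That measure has the same value for both arms of each miR-23 and miR-27 hairpin, so it cannot reflect a difference between those arms. The cause of the other changes was not tested. The share difference of the members was -3.31 points without miR-21-5p and -6.28 points without the 10 most abundant other miRNAs in the denominator. Either smaller denominator raises the shares of both groups. When 1 library was left out the share difference was -1.16 to -1.05 points. With 3 libraries a group, exact tests could not reach the threshold.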

Other observations

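The miRNAs whose levels ran most like those of 2 members were found among 296 other miRNAs, by the root mean square difference of centred log2 CPM over the 6 libraries, as a description of pattern. For miR-23b-5p these were miR-654-5p (0.177), miR-125a-3p (0.202) and let-7e-5p (0.208). let-7e-5p, a member of the let-7 family of growth-restraining miRNAs, was at 4882 ± 591 CPM in total RNA and at 23068 ± 3643 CPM in m7G-RIP (SD, n = 3). miR-125a-3p was at 138 ± 19.4 and 652 ± 44.1 CPM, and miR-654-5p at 88.2 ± 5.32 and 434 ± 16.5 CPM (SD, n = 3). All of them were higher in every m7G-RIP library than in any total RNA library. They were chosen by their pattern over these same libraries, so this is not a separate result.

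For miR-27b-3p the nearest were miR-9-5p (0.0690), miR-30c-5p (0.0907) and miR-93-5p (0.0958), all lower in m7G-RIP, which again follows from the choice by pattern. miR-30c-5p was at 2579.7 ± 81.6 CPM in total RNA and at 624 ± 56.9 CPM in m7G-RIP (SD, n = 3). miR-93-5p, from a paralog of the miR-17-92 cluster, was at 884 ± 45.9 and 206 ± 47.5 CPM, and miR-9-5p at 545 ± 59.1 and 112 ± 18.2 CPM (SD, n = 3).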
